A study of Sus scrofa with 10 samples.

Results

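The myosin heavy and light chain genes described here were 10 named genes: the developmental heavy chains MYH3 and MYH8, the adult heavy chains MYH1, MYH2, MYH4 and MYH7, and the light chains MYL1, MYL2, MYL3 and MYL6B. They were chosen by name, with MYH3 at the head because it differed between the pigs studied here. Of the 10, 5 could be paired with a gene identifier of the deposited table of 25880 genes: MYH3 (ENSSSCG00000018007), MYH8 (ENSSSCG00000018005), MYL1 (ENSSSCG00000016157), MYL2 (ENSSSCG00000039710) and MYL3 (ENSSSCG00000011325). MYH1, MYH2, MYH4, MYH7 and MYL6B were not paired with an identifier here and no value is given under these names. All 5 paired members passed the filter on low values. RNA was sequenced from the longissimus lumborum, the long loin muscle, of 5 Alentejano (AL) and 5 Bísaro (BI) pigs, 2 local Portuguese breeds, with 1 library per pig. All 10 animals were purebred castrated males reared free range and fed commercial diets, and were slaughtered at about 150 kg. The labels call this a carcass weight and the published methods a live weight. The age of each pig was not given in the sources used here.

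Myosin is the motor of the muscle fibre, a hexamer of a pair of heavy chains that split ATP and pull on actin, with light chains that stiffen and tune the neck of each head. Vertebrates carry a family of sarcomeric heavy chain genes used in turn: MYH3 (embryonic) and MYH8 (perinatal) before and around birth and in regenerating fibres, and MYH7 (slow), MYH2, MYH1 and MYH4 (fast) in adult fibres. MYL1 and MYLPF are the essential and regulatory light chains of fast fibres, and MYL3 and MYL2 are their counterparts in slow fibres.

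The heavy chain genes lay in 2 groups on the Sscrofa11.1 assembly (RefSeq annotation release 106). MYH3 (annotated as LOC396711, myosin-3) occupied chr12:55351152-55373236 on the minus strand, and MYH8 (LOC110255887, myosin-8) chr12:55135651-55166983 on the same strand, its start 206 kb from that of MYH3. MYH2, MYH1 and MYH4 lay between them, with starts at 94.4, 122 and 157 kb from that of MYH3. MYH7 (chr7:75650841-75672908, plus strand) was followed after 4757 bp by MYH6 (LOC100736765, myosin-6). The light chains were scattered, MYL1 at chr15:113038083-113051315, MYL2 at chr14:32205953-32213848 and MYL3 at chr13:29730271-29735616, all on the minus strand, and MYL6B at chr5:21554351-21558995 on the plus strand. Reads had been assigned to Ensembl models, whose gene borders can differ from these. Members of this family are close in sequence, and how reads that match several of them were shared out is not given in the sources used here.

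The bases before the annotated start are shown for the 5 paired members, since these carry all the values and differ in the direction of their breed difference. Each line holds the 250 bases before the RefSeq start, 5′ to 3′ on the strand of the gene, read from the reference assembly and not from the pigs. They span chr12:55373237-55373486 for MYH3, chr12:55166984-55167233 for MYH8, chr15:113051316-113051565 for MYL1, chr14:32213849-32214098 for MYL2 and chr13:29735617-29735866 for MYL3, and all 5 are on the minus strand. Capitals mark the motifs searched on both strands: TATAAA, the E-box CANNTG bound by myogenic factors, the MEF2 motif and the CArG box.
MYH3: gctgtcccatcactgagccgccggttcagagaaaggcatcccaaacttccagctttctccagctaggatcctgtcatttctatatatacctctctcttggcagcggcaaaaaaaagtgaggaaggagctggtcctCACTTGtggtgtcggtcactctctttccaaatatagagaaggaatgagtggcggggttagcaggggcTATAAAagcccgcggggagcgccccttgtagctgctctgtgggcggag
MYH8: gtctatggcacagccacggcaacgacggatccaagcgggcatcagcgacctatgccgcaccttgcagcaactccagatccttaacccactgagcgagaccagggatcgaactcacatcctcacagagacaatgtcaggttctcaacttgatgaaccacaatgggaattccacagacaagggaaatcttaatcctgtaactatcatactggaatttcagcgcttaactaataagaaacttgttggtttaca
MYL1: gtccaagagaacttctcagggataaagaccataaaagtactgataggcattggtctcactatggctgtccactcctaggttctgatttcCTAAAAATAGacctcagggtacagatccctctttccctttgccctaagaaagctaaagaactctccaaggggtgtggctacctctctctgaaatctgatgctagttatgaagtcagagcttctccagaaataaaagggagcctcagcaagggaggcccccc
MYL2: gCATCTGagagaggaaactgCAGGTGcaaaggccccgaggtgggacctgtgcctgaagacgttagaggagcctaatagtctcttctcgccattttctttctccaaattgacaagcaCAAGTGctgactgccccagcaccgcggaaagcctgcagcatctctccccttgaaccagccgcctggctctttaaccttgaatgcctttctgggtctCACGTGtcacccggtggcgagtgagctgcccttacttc
MYL3: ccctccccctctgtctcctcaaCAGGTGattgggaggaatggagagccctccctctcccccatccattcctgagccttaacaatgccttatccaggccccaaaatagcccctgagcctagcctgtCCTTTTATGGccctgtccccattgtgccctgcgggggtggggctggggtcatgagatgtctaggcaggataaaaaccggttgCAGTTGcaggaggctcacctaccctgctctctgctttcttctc

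The MYH3 window held TATAAA from 48 to 43 bases before the start and 1 E-box from 115 to 110 bases before it. The MYH8 window held none of the 4 motifs. MYL1 had 1 MEF2 motif from 161 to 152 bases before its start, MYL2 had 4 E-boxes, and MYL3 had 2 E-boxes and 1 CArG box from 125 to 116 bases before its start. Of 19556 windows of the same length before protein-coding genes, 61.9% held CANNTG, 9.77% TATAAA, 2.55% the MEF2 motif and 1.31% the CArG box. These matches describe the reference sequence, and no binding was measured.

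The values were gene counts divided by the size factor of each pig, here called normalised counts, and whole reads could be recovered from them. Between 2298045 and 3343194 reads were counted on genes per pig, and 3 reads, the floor used here, corresponded to 2.47 to 3.39 normalised counts (counting error only). The 8 paired genes of a list that defines skeletal muscle (ACTA1, CKM, DES, NEB, TNNT3, MYLPF, TNNC2 and TPM2) summed to between 18108 and 51657 normalised counts, and AL44 was the lowest pig. The gene counts of pigs of the same breed differed by more than counting noise (chi-square per degree of freedom 9.73 to 48.98). With 1 library per pig and no stated repeats, p-values rest on the spread between these pigs, in which animal and library cannot be told apart. Fewer fibres of a type and less RNA per fibre cannot be told apart in such bulk tissue.

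The libraries were stranded, but the strand setting of the counting is not given in the sources used here. ND6, the protein gene of mitochondrial DNA that lies on the other strand from the remaining 12, had 24966 to 81216 normalised counts and exceeded the sum of those 12 in 10 of 10 pigs. SEPT1, on the opposite strand 180 bp from MYLPF, averaged 325871 normalised counts against 741 for MYLPF. MYH3, MYH8 and MYL3 had no annotated gene on the opposite strand within 5000 bp. MYL1 shared 7211 bp with the noncoding LOC102160916 and MYL2 lay wholly within CCDC63, both on the opposite strand and neither paired with an identifier. Whether the values below count transcripts of the named strand was not tested.

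MYH3, the embryonic heavy chain, was the paired heavy chain member with the most reads, and its normalised counts were lower in most AL than in most BI pigs. In AL it had 602 (AL44), 395 (AL46), 559 (AL49), 244 (AL52) and 366 (AL63). In BI it had 1645 (BI25), 438 (BI34), 1167 (BI36), 940.0 (BI37) and 779.5 (BI42). All BI pigs but BI34 lay above every AL pig, and BI34 fell within the AL range. The AL mean was 433 ± 147 (SD, n = 5). The BI mean was 994 ± 450.4 (SD, n = 5), 2.29 times as high. The log2 fold change of AL over BI was -1.14 with a standard error of 0.32, on the scale of log2(normalised count + 1). MYH3 was chosen for this difference, so that it is given as a description and no test is attached to it. The gene had 274 to 1997 reads per pig. The spread within BI was wider than within AL: the highest BI pig had 3.75 times the count of the lowest, against 2.47 times in AL.

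MYH8, the perinatal heavy chain of the same cluster, was lower still and uneven among pigs. Its normalised counts in AL were 5.66 (AL44), 70.6 (AL46), 16.2 (AL49), 15.1 (AL52) and 12.4 (AL63), from as few as 6 reads in AL44. In BI they were 74.96 (BI25), 23.1 (BI34), 15.5 (BI36), 104 (BI37) and 24.3 (BI42). The breeds overlapped, AL46 standing among the high BI pigs and BI36 among the low AL pigs. The log2 fold change was -1.10 with a standard error of 0.61 (limma adjusted p = 0.778), close in size to that of MYH3 but with a larger error. It was -1.60 without AL46, -0.75 without AL44 and -0.73 without BI37, and -0.78 with a pseudocount of 10. MYH13, the extraocular heavy chain further along the cluster, was at or under 3 reads in all 5 AL pigs and had 5, 0, 4, 7 and 3 reads in BI25, BI34, BI36, BI37 and BI42, too few to be tested.

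**Figure D1:**
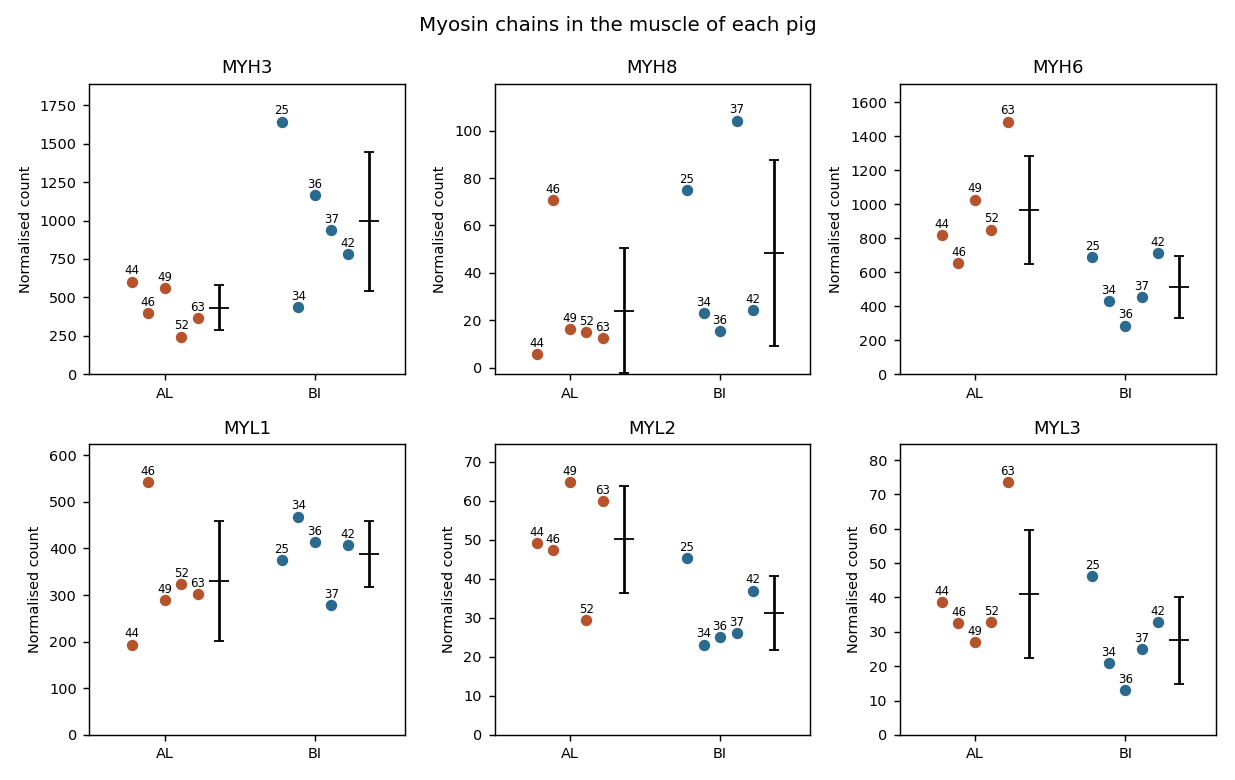
Normalised count (y axis, linear) of 6 myosin chains in each AL and BI pig (points, with the animal number), with mean and SD beside them (bars, n = 5). MYH3 ran from 244 to 602 in AL and from 438 to 1645 in BI, while MYH6, MYL2 and MYL3 had the higher mean in AL, and the breeds overlapped for every gene shown.

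The adult slow heavy chain MYH7 was not paired, and the nearest chain with a value was its neighbour MYH6, the alpha chain of the heart, which was not among the 10 members. Its identifier (ENSSSCG00000002029) is paired with that symbol only through the gene name table. MYH7 and MYH6 are close in sequence and position, and whether their reads were kept apart was not tested. The study speaks of MYH7, and this row may be the gene it calls by that name. The authors' deposited values for the row could be compared with those published for MYH7. They were not used here, so the identity of the row was not tested, and MYH6 below names the row only. MYH6 had 819, 653, 1027, 850.3 and 1487 normalised counts in AL44, AL46, AL49, AL52 and AL63. In BI25, BI34, BI36, BI37 and BI42 it had 688, 429.6, 285, 453 and 714. AL46 was the only AL pig not above all BI pigs. The log2 fold change was 0.93 with a standard error of 0.26 (limma adjusted p = 0.299), which missed the threshold of 0.05. DESeq2 on the recovered reads gave MYH6 a log2 fold change of 0.91 (DESeq2 adjusted p = 0.0962), which also missed the threshold. With limma MYH6 passed when no minimum was set on the values (adjusted p = 0.0334). Over all the settings tried its adjusted p ran from 0.0334 to 0.573.

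The slow light chains had higher means in AL without passing the test. MYL2, the slow regulatory light chain, had 49.1, 47.4, 64.7, 29.4 and 59.9 normalised counts in AL44, AL46, AL49, AL52 and AL63. In BI25, BI34, BI36, BI37 and BI42 it had 45.3, 23.1, 24.998, 26.1 and 36.97. All AL pigs other than AL52 lay above every BI pig. The means were 50.1 ± 13.7 (SD, n = 5) and 31.3 ± 9.52 (SD, n = 5), and the difference was 0.66 on the log2 scale with a standard error of 0.27 (adjusted p = 0.554 by limma).

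MYL3, the slow essential light chain, had 38.7, 32.5, 27.0, 32.9 and 73.5 normalised counts in AL44, AL46, AL49, AL52 and AL63. In BI25, BI34, BI36, BI37 and BI42 it had 46.1, 20.9, 12.9, 25.1 and 32.7. The breeds overlapped, with AL63 the only AL pig above all BI pigs and BI25 above every AL pig but AL63. Its log2 fold change was 0.58, standard error 0.34 (limma adjusted p = 0.782), and 0.35 without AL63 or without BI36. Both slow light chains rested on few reads, 21 to 60 for MYL2 and 15 to 65 for MYL3 per pig.

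MYL1, the fast essential light chain, was the light chain member with the highest count and showed no called difference. It had 194, 542, 289, 323 and 302 normalised counts in AL44, AL46, AL49, AL52 and AL63. In BI25, BI34, BI36, BI37 and BI42 it had 376, 468, 413, 278 and 407. Both the lowest and the highest of the 10 pigs were AL animals, AL44 and AL46, and the BI range lay inside the AL range. The log2 fold change was -0.29, standard error 0.23 (limma adjusted p = 0.844), -0.12 without AL44, the pig with the lowest counts of muscle genes, and -0.49 without AL46. MYLPF, the fast regulatory light chain, varied between pigs much as MYL1 did, from 385 in AL44 to 1142 in AL46, and AL differed from BI by -0.33 on the log2 scale with a standard error of 0.23 (adjusted p = 0.815 by limma). Its difference was -0.15 without AL44 and -0.54 without AL46. The ratio of MYL1 to MYLPF stayed between 0.441 and 0.516 in the 10 pigs.

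Over all 3315 genes tested, limma called 1 gene, or 0.0302% (INTS11, no myosin chain), and 239 genes, or 7.21%, had an unadjusted p under 0.05. DESeq2 on the recovered reads called 27 genes, or 0.814%. Of the 4 paired members other than MYH3, 0 were called by limma or DESeq2, and of all 5 paired members 0 had breeds that did not overlap, against 1.39% of all genes. Because the members were chosen with such values known, nothing is read from these counts. The median log2 fold change was -0.29 over the 5 members and -0.03 over all genes tested. Of the members, 3 had a value below 0 (MYH3, MYH8 and MYL1) and 2 above 0 (MYL2 and MYL3), and each kept its direction in the settings in which it was tested, with single pigs left out included. A mean of 50 or more in both breeds left only MYH3 and MYL1 of the members to test.

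Of a list of 17 other myosin chains, 14 were paired and 7 of these were tested, with 0 called in either direction. Their median log2 fold change was 0.15, and they ran from -0.33 for MYLPF to 0.93 for MYH6. MYH7B, a slow-type heavy chain gene that hosts a microRNA of slow muscle, had the highest normalised count of the paired heavy chains, 2158 to 3555, and differed by 0.15 on the log2 scale with a standard error of 0.15 (adjusted p = 0.884 by limma). MYH7B shared 31 bp with TRPC4AP on the opposite strand, which averaged 9.42 normalised counts. Whether reads of that neighbour entered the count of MYH7B was not tested. The non-muscle heavy chains MYH9 and MYH14 both had log2 fold changes of 0.46, with standard errors of 0.32 and 0.36 (limma adjusted p = 0.815 and 0.832). With single pigs left out MYH14 ran from 0.18 (without AL63) to 0.70 (without AL44) and MYH9 from 0.32 (without BI25) to 0.67 (without AL44). MYL5 and MYL6 had log2 fold changes of -0.06 and 0.07, with standard errors of 0.31 and 0.64, and MYL6 was nearly absent from AL52, at 1.78 against 30.5 to 49.3 in the other AL pigs. MYL4, the embryonic and atrial light chain, had 1 read in BI25 and 0 in the other pigs, and MYL10 had 0 reads in all.

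**Figure D2:**
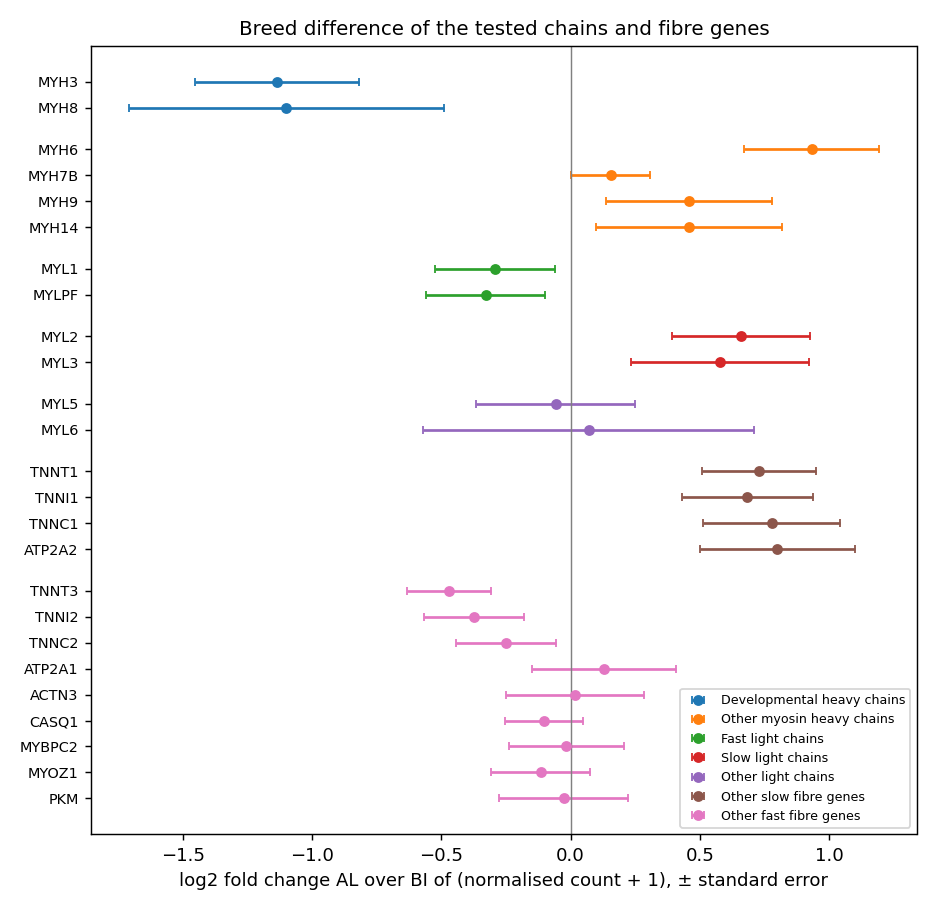
Log2 fold change of AL over BI (x axis, log2 of normalised count + 1, bars are standard errors from limma, 5 pigs per breed) of the tested myosin chains and of the other slow and fast fibre genes. MYH3 and MYH8 lie at -1.14 and -1.10, MYH6 at 0.93, and MYL2 and MYL3 at 0.66 and 0.58, next to the other slow fibre genes.

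Compared per length of RefSeq exons, the order of the chains over the 10 pigs was MYLPF (932 normalised counts per kb), MYL1 (420.4), MYH7B (256), MYH3 (118), MYH6 (116), MYL3 (46.5), MYL2 (44.1), MYL6 (15.0) and MYH8 (6.02). MYLPF exceeded MYL1 in 10 of 10 pigs, and MYL1 exceeded MYH7B in 10 of 10. MYH3 and MYH6 could not be ordered, since MYH3 was the higher in 5 of 10 pigs, and MYL3 was above MYL2 in only 6. In AL the mean levels per kb were 71.3 for MYH3 and 151 for MYH6, and in BI 164 and 80.4. Because no row was paired with MYH1, MYH2, MYH4 or MYH7, these levels do not describe the whole heavy chain pool. The counts came from Ensembl models and the lengths from RefSeq, and the strand setting of the counting is not given. The order is thus one of counts per length. Whether the transcripts of the chains had the same order was not tested.

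The ratio of MYH3 to MYH6 differed between all pigs of one breed and all pigs of the other. In AL it was 0.735 (AL44), 0.605 (AL46), 0.544 (AL49), 0.287 (AL52) and 0.246 (AL63). In BI it was 2.39 (BI25), 1.02 (BI34), 4.09 (BI36), 2.08 (BI37) and 1.09 (BI42). MYH6 thus had more normalised counts than MYH3 in all AL pigs and fewer in all BI pigs, although BI34 was close to 1. The ratio was chosen after the values were seen, and 1 of its genes was chosen for its difference, so it is not tested.

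The balance of slow to fast light chains was taken as the log2 ratio of summed MYL2 and MYL3 to MYL1. It was -1.14, -2.76, -1.66, -2.37 and -1.18 in AL44, AL46, AL49, AL52 and AL63. In BI25, BI34, BI36, BI37 and BI42 it was -2.04, -3.41, -3.44, -2.44 and -2.54. The breeds overlapped, with 3 AL pigs above and 2 BI pigs below all pigs of the other breed. The mean was -1.82 ± 0.72 (SD, n = 5) for AL. For BI it was -2.78 ± 0.62 (SD, n = 5), and the difference was 0.95. In every pig the slow chains had the minority of the counts, from 8.41% of those of the 3 light chains in BI36 to 31.2% in AL44. The ratio holds both slow chains but leaves out the fast chain MYLPF. MYLPF exceeded MYL1 in every pig (MYL1 to MYLPF 0.441 to 0.516), so the slow share with it included would be lower. The high ratio of AL44 went with the lowest MYL1 of all pigs, and without that pig the difference was 0.78.

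**Figure D3:**
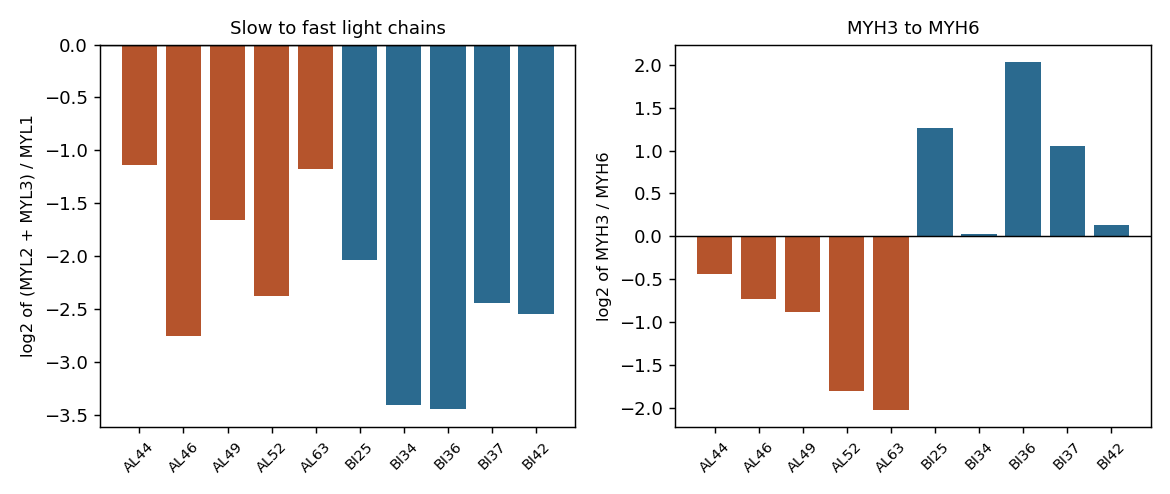
Left, log2 ratio of summed MYL2 and MYL3 to MYL1, and right, log2 ratio of MYH3 to MYH6, in each AL (brown) and BI (blue) pig, as bars from 0. The left ratio is below 0 in all pigs and overlaps between breeds, and the right ratio is below 0 in all 5 AL and above 0 in all 5 BI pigs.

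The light chains were then set beside other genes of slow and fast fibres. Of 11 slow fibre genes, MYL2 and MYL3 included, 7 were paired and 6 tested, and 0 passed the test, although all 6 had log2 fold changes above 0, from 0.58 (MYL3) to 0.80 (ATP2A2, the slow calcium pump), with a median of 0.71. Their smallest adjusted p was 0.337, for the slow troponin TNNT1 (log2 fold change 0.73, standard error 0.22). The summed slow fibre genes ran from 769 to 1451 normalised counts in AL and from 459 to 803 in BI. Of 12 fast fibre genes, MYL1 and MYLPF included, all were paired and 11 tested, again with 0 called, and their log2 fold changes ran from -0.47 (TNNT3, fast troponin T) to 0.13 (ATP2A1, the fast calcium pump), with a median of -0.12. The summed fast fibre genes ran from 15745 to 28925 in AL and from 24123 to 36991 in BI.

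Most genes that accompany embryonic myosin in regenerating fibres had few reads. Of 25 genes of embryonic and regenerating muscle 20 were paired, 16 of these missed and 4 reached the minimum of 50 summed normalised counts in each breed, and 9 had 3 reads or fewer in every pig. CHRNA1, the muscle acetylcholine receptor subunit, and PAX3 were at 0 in all pigs, and MYOG, the differentiation factor, reached 14.3 at most. The 4 tested genes, CDH15, MEF2D, VGLL2 and TEAD4, had log2 fold changes from -0.52 (CDH15, a cadherin of satellite cells) to 0.15 (MEF2D), with 0 called and a smallest adjusted p of 0.743. PAX7 and MYF5, which define satellite cells, had 2.26 or fewer normalised counts in every pig. Because the strand setting of the counting is not given, these low counts do not show that the genes were silent.

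Of 19 genes of thick filament assembly and regulation, 17 were paired and 12 tested, with 0 called and a median log2 fold change of 0.10. The lowest was SMYD1, a methyltransferase needed for sarcomere assembly, at -0.66 with a standard error of 0.28 (limma adjusted p = 0.613). The highest was TRIM63, a ubiquitin ligase that marks myosin for breakdown, at 0.68 with a standard error of 0.31 (limma adjusted p = 0.675). Among markers of other cell types, the summed adipocyte list ran from 7.55 to 32.8, the endothelial list from 2.20 to 16.7 and the fibroblast list from 14.2 to 112 normalised counts, and CD3E, of T cells, was at 0. The immune list was higher, at 244 to 389, mostly through CSF1R, of macrophages, at 211 to 365. CD68, also of macrophages, ran from 6.61 to 60.4, while PTPRC and CD163 reached 2.16 at most. HMGXB3, on the opposite strand 111 bp from CSF1R, averaged 137 normalised counts against 276 for CSF1R. The part of that neighbour in the count of CSF1R was not tested. The smooth muscle list was led by LMOD1, at 129 to 259 in AL and 252.05 to 322 in BI (log2 fold change -0.76, standard error 0.19, limma adjusted p = 0.231). LMOD1 shared 8652 bp with the noncoding LOC110255662 on the opposite strand. The other 5 genes of the list were under the minimum, and each had the higher mean in AL. Their AL mean was 1.04 (TAGLN) to 1.46 (CNN1) times the BI mean. Their means over all pigs ran only from 2.99 (TAGLN) to 11.5 (MYH11). Whether these levels had a part in the differences of the myosin chains was not tested.

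Covariation of MYH3 with the other genes was measured over the 10 pigs after subtraction of the breed means, so that the breed difference did not enter. Of 3314 genes compared, 0 had an adjusted p under 0.05 in the exact permutation test within breeds (percent called 0), and 430, or 13.0%, had an unadjusted p under 0.05. With Spearman's rho the number was also 0, with 456 unadjusted. The quartiles of r over all genes were -0.39 and 0.39, and the median was -0.00. The 2 pigs farthest from the median of MYH3 were BI25 and AL52, and r is also given without them. After subtraction of the breed means the 2 farthest were BI25 and BI34, a choice made after seeing the data, whose r is given where it differs in size.

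MYH8 had a value near 0 with MYH3 within breeds, with r = 0.09 and rho = 0.09 (exact two-sided permutation p = 0.805 and 0.819, adjusted 0.914 and 0.932), and r = -0.16 without BI25 and AL52. The 2 developmental chains were both high in BI25, but AL46 and BI37, high for MYH8, were close to their breed means for MYH3. MYL2 had the closest relation among the members, r = 0.66 and rho = 0.61 (exact permutation p = 0.0544 and 0.0874, adjusted 0.374 and 0.413). It became r = 0.15 without BI25 and AL52, on which it largely rests, and r = 0.48 without BI25 and BI34.

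MYL3 had r = 0.13 and rho = 0.08 (exact permutation p = 0.743 and 0.850, adjusted 0.885 and 0.947), with r = -0.41 without BI25 and AL52 and r = -0.35 without BI25 and BI34. MYL1 had a value below 0, with r = -0.39 and rho = -0.53 (exact permutation p = 0.251 and 0.129, adjusted 0.543 and 0.461), with r = -0.52 without BI25 and AL52 and r = -0.38 without BI25 and BI34. None of these values passed the test. Between breeds MYH3 and MYL2 had opposite directions, which the raw r over 10 pigs (-0.12) mixes with the relation within breeds.

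**Figure D4:**
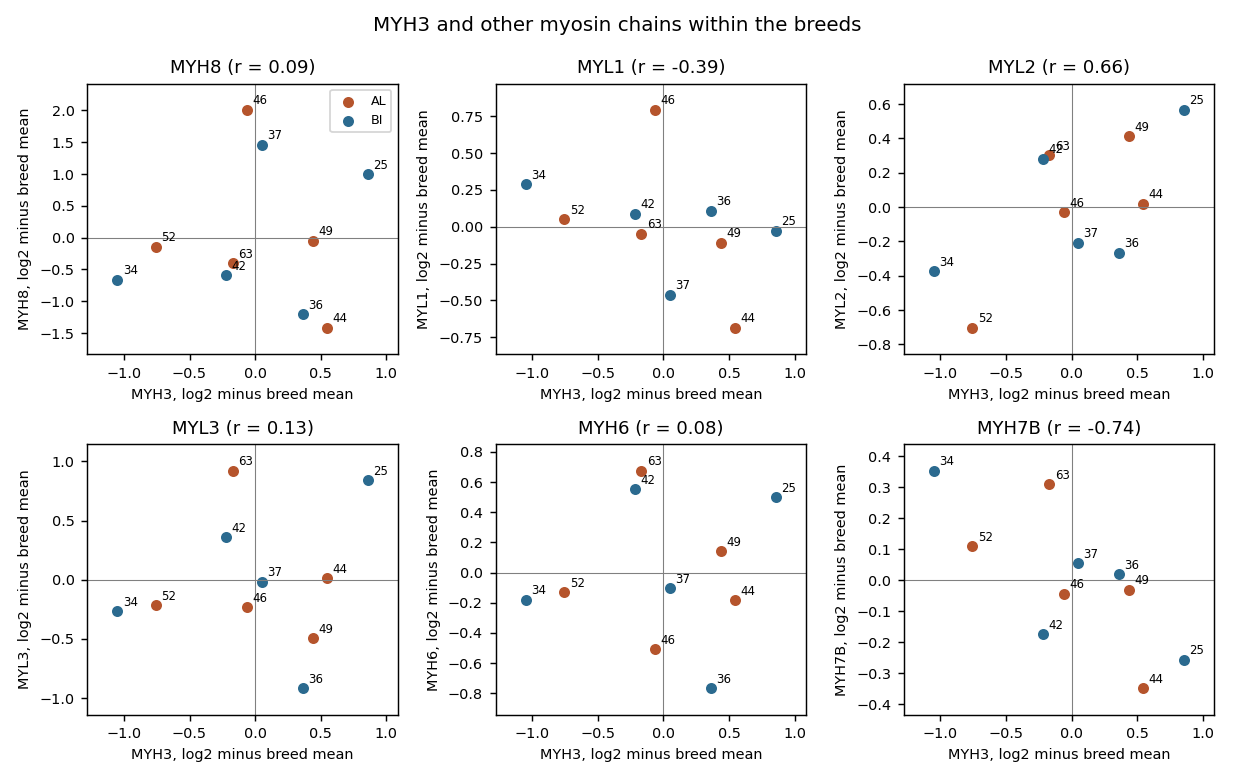
MYH3 (x axis) against 6 other myosin chains (y axis) in 10 pigs, both as log2 of normalised count + 1 minus the breed mean, with the animal number beside each point. MYL2 has r = 0.66, against 0.15 without BI25 and AL52 and 0.48 without BI25 and BI34, and MYH7B has r = -0.74.

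Among the other myosin chains MYH7B had the r farthest from 0, r = -0.74 and rho = -0.71 (exact permutation p = 0.0244 and 0.0393, adjusted 0.337 and 0.350), r = -0.69 without BI25 and AL52, and r = -0.49 without BI25 and BI34. MYH6 had r = 0.08 and rho = -0.07 (exact permutation p = 0.850 and 0.873, adjusted 0.934 and 0.956). The slow fibre genes had r above 0 in 6 of 6 tested (median 0.38), but in 2 of 6 without BI25 and AL52 (median -0.17) and in 4 of 6 without BI25 and BI34 (median 0.15). The fast fibre genes had r below 0 in 11 of 11, with a median of -0.63, in 11 of 11 without BI25 and AL52 (median -0.78), and in 11 of 11 without BI25 and BI34 (median -0.62). These genes were measured in the same libraries, and none passed the test (smallest adjusted p 0.336). The share of reads taken by the 10 highest genes also had a value below 0 with MYH3 within breeds (r = -0.54, rho = -0.59, exact permutation p = 0.117 and 0.0986, adjusted 0.234 and 0.197, and r = -0.75 without BI25 and AL52), while that of the number of reads was near 0 (r = -0.00, rho = 0.09, exact permutation p = 0.993 and 0.835, adjusted 0.993 and 0.835). The paper names RABEP2, SEPT1 (SEPTIN1) and CTSF among its most expressed genes. All lie on the opposite strand at fast fibre genes. RABEP2 overlapped ATP2A1 by 49 bp, SEPT1 lay 180 bp from MYLPF and CTSF 128 bp from ACTN3. The share of the highest genes is thus not separate from these loci. Its part in the relation with the fast fibre genes was not tested.

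In the thick filament list r was below 0 for 11 of 12 genes, with a median of -0.50, and for 9 of 12 without BI25 and AL52 (median -0.58) or without BI25 and BI34 (median -0.45). The lowest was UNC45B, the chaperone that folds the myosin head, at r = -0.88 and rho = -0.89 (exact permutation p = 0.00132 and 0.00104, adjusted 0.336 and 0.297), r = -0.86 without BI25 and AL52, and r = -0.79 without BI25 and BI34. UNC45B itself had nearly equal means in the breeds, at 29.7 ± 11.02 (SD, n = 5) normalised counts for AL and 29.8 ± 14.5 for BI. It rested on few reads, 13 to 49 per pig. SLFN11, on the opposite strand 997 bp from UNC45B, averaged 36.8 normalised counts, and its part in the count of UNC45B was not tested. MYBPH, a myosin-binding protein, had the only value above 0 over all 10 pigs, r = 0.44, which became 0.20 and 0.25 without these pairs of pigs. MYBPH shared 3461 bp with ADORA1 on the opposite strand, which averaged 24928 normalised counts against 115 for MYBPH. The part of that neighbour in the count of MYBPH was not tested. Of the 5 immune genes listed, CD68, of macrophages, stood at r = 0.87 with MYH3 within breeds and rho = 0.84 (exact permutation p = 0.000208 and 0.0016, adjusted 0.173 and 0.297), r = 0.88 without BI25 and AL52, and r = 0.71 without BI25 and BI34. CSF1R had r = 0.08, while PTPRC and CD163 reached 2.16 normalised counts at most and CD3E was at 0. The summed immune list ran from 246 to 382 in AL and from 244 to 389 in BI, and its part in the level of MYH3 was not tested.

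**Figure D5:**
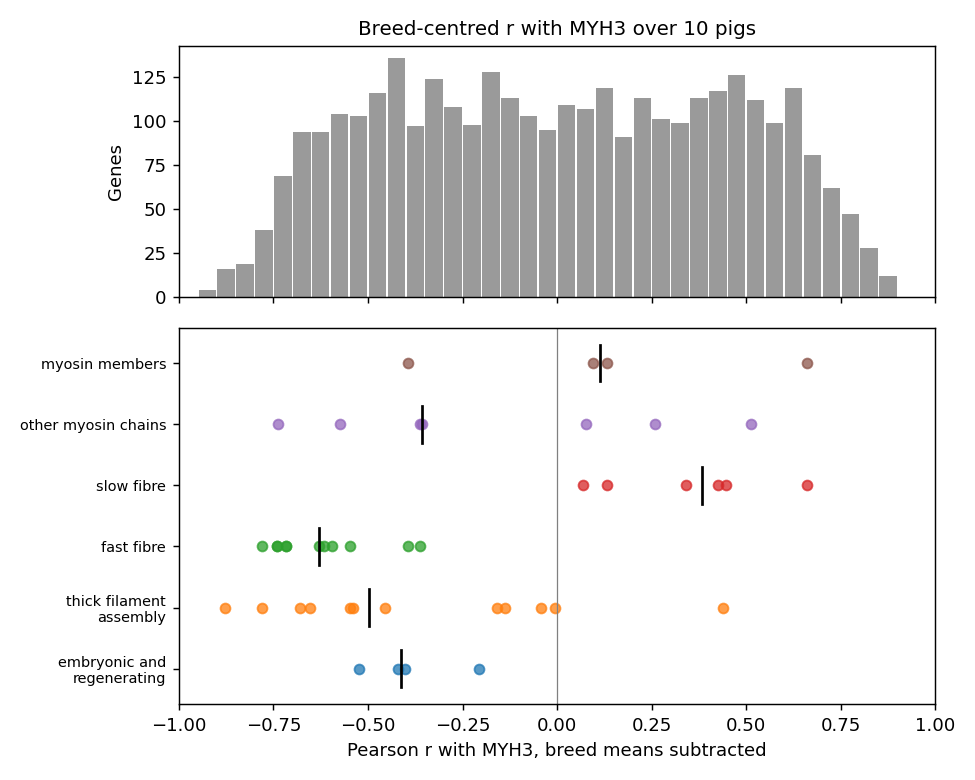
Top, number of genes (y axis) by Pearson r with MYH3 over 10 pigs with breed means subtracted (x axis), for 3314 genes. Bottom, the same r for each tested gene of 6 lists (points) with the list median (black bar), from -0.63 for the fast fibre genes to 0.38 for the slow fibre genes.

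Among 1582 genes with a mean of at least 50 normalised counts, the 5 most like MYH3 by this r were ENSSSCG00000032547 (r = 0.89), NPLOC4 (0.88), GMPR2 (0.88), TESK2 (0.87) and SLC7A6OS (0.86). The 5 most opposite were HDGF (-0.91), PAFAH1B3 (-0.90), GPATCH4 (-0.88), FKBP2 (-0.88) and LSMEM2 (-0.88). They were ranked over 10 pigs, and the adjusted p of each was 0.173 or more. No myosin chain was among them.

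The light chains were also ranked against all genes within breeds. MYLPF was the gene most like MYL1 of 3314, with r = 0.98 and rho = 0.96 (exact permutation p = 0.000208 and 0.000347, adjusted over all genes 0.327 and 0.460), and r = 0.94 without AL44 and AL46. For MYL3 the second and the third of all genes were MYH6 (r = 0.86, rho = 0.71, exact permutation p = 0.00694 and 0.0395, adjusted 0.999 and 1) and TNNT1 (r = 0.86, rho = 0.82, exact permutation p = 0.00111 and 0.00868, adjusted 0.829 and 1). Without BI36 and AL63, the 2 pigs farthest from the median of MYL3, these became r = 0.55 and 0.74. TNNC1, the slow troponin C, ranked 2 for MYL2 (r = 0.88, rho = 0.83, exact permutation p = 0.00965 and 0.0117, adjusted 0.999 and 1, and r = 0.87 without BI34 and BI36). None of these relations passed the adjustment over all genes.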

How the data were processed

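Muscle RNA of 5 AL and 5 BI pigs was measured with 1 library per pig. Trimming used Trim Galore 0.5.0, alignment HISAT2 2.1.0 on the Sscrofa11.1 assembly, and counting HTSeq 0.11.1 with gene models of Ensembl release 94. The deposited signal values are gene counts that the authors scaled with a DESeq2 size factor, which assumes that most genes did not change. The log2 fold changes, p-values and scores (standard error and Wald statistic) that the authors deposited for the same comparison were not used. Whole reads were recovered for 100% of values (tolerance 0.01). Reads counted on genes ran from 2298045 to 3343194 per pig, so genes of a few reads are imprecise. This is not the sequencing depth, since the paper reports far more sequenced reads per sample, most of them aligned. Why only a part of them was counted on genes was not tested.

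limma 3.58.1 (R 4.3.3) was run on log2(value + 1) with its intensity trend, over 3315 genes with a sum of at least 50 in each breed, with Benjamini-Hochberg adjustment and a threshold of 0.05. Correlations used all 14400 arrangements of pigs within breeds. Alternatives were pseudocounts of 0.1 and 10, other minimums, other library sizes, DESeq2 1.42.0 and edgeR 4.0.16 on the recovered reads, and each pig left out. Scripts were tested on simulated data.

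Members and lists were chosen with earlier results of these data known. The genes named are all members, list genes that passed the test or were highest or lowest in their list, the 5 genes most like and most opposite to MYH3, and neighbours on the opposite strand; other list genes were named after their values were seen. Symbols came from a gene name table, which paired 14857 identifiers, and positions and sequences from RefSeq annotation release 106 of Sscrofa11.1.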

Additional observations from a re-analysis of the deposited data

Results flagged for a closer look

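In 26 sets of 5 pigs (12 tested myosin chains and the light chain ratio, in each breed) the gap of the highest or lowest pig to the next was compared with the whole range, and 2 sets had a gap above 0.71 of the range, where chance gives about 1 in 20. MYH8 was 70.6 in AL46, far above the next AL pig at 16.2. MYL3 was 73.5 in AL63, far above the next AL pig at 38.7. Without AL46 the log2 fold change of MYH8 went from -1.10 to -1.60, within a range of -1.60 to -0.73 over the single pigs left out. Without AL63 that of MYL3 went from 0.58 to 0.35, within a range of 0.35 to 0.79.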

How the results depend on the processing

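The log2 fold change of MYH3 lay between -1.20 and -1.12 in the other settings and between -1.40 and -0.92 with single pigs left out. limma called 1 gene of 3315, and this number was 0 when the mean had to reach 50 in both breeds, 40 with no minimum, 27 with DESeq2 on the recovered reads, and from 0 to 18 with single pigs left out (0 without BI36, 4 without BI37, 18 without AL44). The cause was not tested. Of the 11 other myosin chains tested 0 were called, and 1 (MYH6, adjusted p 0.0334) with no minimum. MYL6 turned to -0.0076 with a pseudocount of 0.1 and ran from -0.21 to 0.84, and MYL5 from -0.20 to 0.11, with single pigs left out. No gene was called for covariation with MYH3 in any setting with a test. The r of MYH8, MYL3 and MYH6 turned to -0.16, -0.41 and -0.30 without BI25 and AL52, to -0.27, -0.35 and -0.28 without BI25 and BI34 (chosen after seeing the data), and ran from -0.10 to 0.31, -0.24 to 0.34 and -0.18 to 0.28 with single pigs left out. Without subtraction of the breed means, the r of MYL1, MYL2, MYL3, MYH6 and MYLPF became 0.0010, -0.12, -0.26, -0.48 and 0.051. The light chain balance differed by 0.90 with MYL3 alone and by 0.78 to 1.19 with single pigs left out. With this number of reads counted on genes, a gene of a few reads per pig is imprecise, and in the main fit it fell under the minimum and was not tested. No paired analysis was possible because the breeds share no animal numbers.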
